A study of Caenorhabditis elegans with 139 samples.

Results

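The genes described here encode 10 enzymes of sugar and fat metabolism in the nematode Caenorhabditis elegans. They were chosen by name: the 4 genes for glyceraldehyde-3-phosphate dehydrogenase (GAPDH), which are gpd-1 (T09F3.3), gpd-2 (K10B3.8), gpd-3 (K10B3.7) and gpd-4 (F33H1.2), the fructose-bisphosphate aldolases aldo-1 (T05D4.1) and aldo-2 (F01F1.12), phosphoglycerate kinase pgk-1 (T03F1.3), enolase enol-1 (T21B10.2), the pyruvate kinase pyk-2 (ZK593.1) and icl-1 (C05E4.9). All 10 were found among 20687 gene rows. In the reference annotation gpd-1, gpd-4 and enol-1 lie on chromosome II, gpd-2 and gpd-3 on X, the aldolases on III, pyk-2 on IV, pgk-1 on I and icl-1 on V.

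Messenger RNA of 139 single embryos was counted by CEL-Seq, a method that barcodes each sample, amplifies it by in vitro transcription and reads the 3′ ends of transcripts. Adults were cut open, the embryos were washed in bleach, and 4-cell embryos were incubated and frozen. That description does not cover the embryos labelled -50 and -30 min, which precede the 4-cell stage. The labels give each embryo a time in minutes after the 4-cell stage and name no strain, genotype, treatment or batch. The question addressed by such a series is how each gene's transcript level changes over embryogenesis. Embryos were grouped into 7 windows of labelled time, called T1 (-50 to 30 min, 17 embryos), T2 (40 to 100 min, 11), T3 (110 to 190 min, 13), T4 (200 to 290 min, 30), T5 (300 to 390 min, 18), T6 (400 to 590 min, 25) and T7 (600 to 840 min, 25).

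Glycolysis splits glucose into pyruvate. Aldolase cleaves the doubly phosphorylated sugar into triose phosphates, GAPDH oxidizes them, phosphoglycerate kinase recovers ATP, enolase makes phosphoenolpyruvate, and pyruvate kinase makes the final ATP and pyruvate. Most of these steps also run in reverse in gluconeogenesis. The glyoxylate cycle, which vertebrates lack and worms and plants have, converts acetyl-CoA from fat into precursors of sugar; in C. elegans its 2 dedicated steps, isocitrate lyase and malate synthase, are carried by the bifunctional enzyme icl-1. Adult C. elegans load the egg with yolk lipid and with maternal transcripts, many of which are degraded in the early embryo.

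The median embryo had 692649 gene counts, the lowest 12338 and the highest 4557314, and 13 were below 100000. Levels are in CPM, a scale on which the gene counts of every embryo add up to an identical sum. CEL-Seq counts transcript ends, so counts were not divided by gene length, and comparisons of level between genes assume that all transcript ends were captured alike. The sample titles are numbered, and embryos were also followed in 5 blocks of consecutive title numbers, since time and number are tied: all 25 embryos of T7 and 18 of 25 in T6 are in block 1, and the embryos of T1 to T5 are mostly in blocks 2 to 5. For 7 embryos the time predicted from the other embryos' profiles missed the label by more than 100 min: 4 of block 1 labelled 240 or 250 min were placed at 420 to 430 min, and 3 of block 2 labelled 200, 340 and 400 min at 790 to 800 min. The best correlation was 0.88 to 0.92 for those of block 1 but only 0.46, 0.57 and 0.55 for those of block 2. The latter had 43797, 53673 and 48222 CPM summed over 6 yolk protein genes, beside 50710 CPM in the T7 embryo labelled 790 min. Whether any of the 7 are late embryos was not tested. All embryos labelled 430 min or later are of block 1. For the 4 of that block, likeness in time and likeness in block cannot be told apart. Calls of the 10 genes that change without the 7 are given both ways. An embryo is bulk RNA of many cells, so fewer cells of a type and less RNA per cell cannot be told apart.

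All 10 genes differed among the 7 windows in edgeR's quasi-likelihood F-test, with adjusted p from 1.56e-34 for gpd-3 to 0.00369 for pgk-1, in a dataset where 93.8% of 9923 genes tested did. The pattern over time fell into 4 kinds. The early transcripts gpd-1 and gpd-4 were high in T1 and low from T3 on. The late transcripts gpd-2, gpd-3 and aldo-1 had their highest means in T7. Aldo-2 and enol-1 were high at both ends with a trough between, and icl-1 was low in T1 and T2 and high from T3 on. The remaining genes, pgk-1 and pyk-2, moved less or stayed low.

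**Figure D1:**
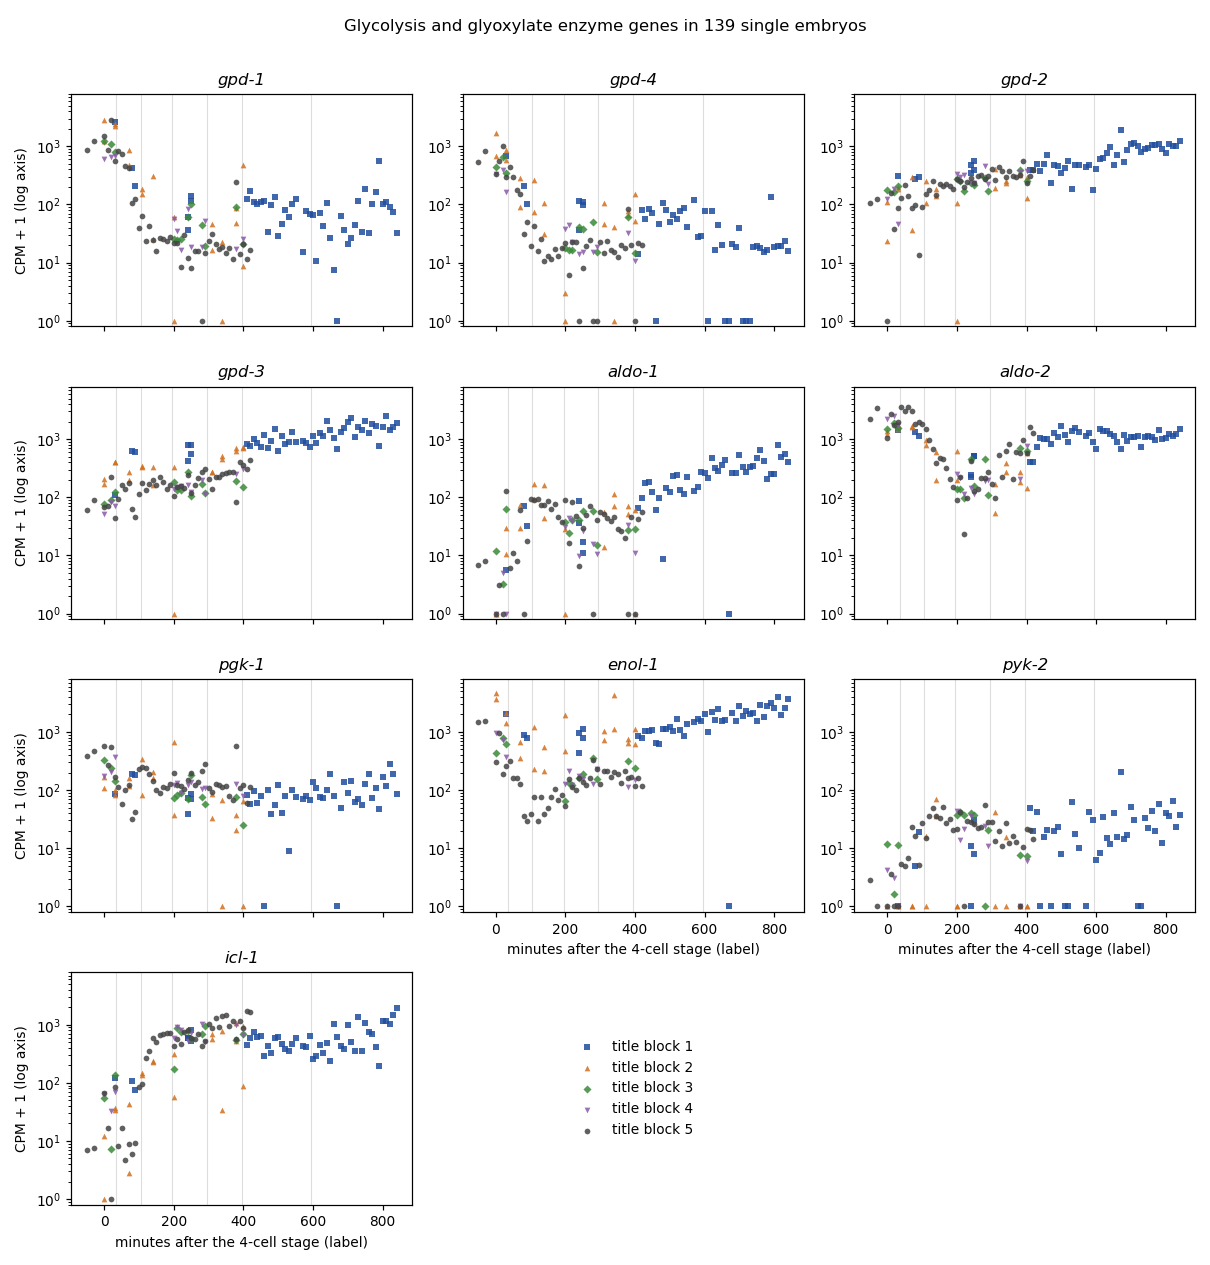
CPM + 1 on a log axis for each of the 10 genes against labelled minutes after the 4-cell stage; each point is 1 embryo, its shape and colour give the block of title numbers, and grey lines separate the 7 time windows. The gpd-1 points lie at or above 550.1 CPM in T1 and at or below 304.4 CPM in T3, while gpd-3 reaches a mean of 1494 CPM in T7; enol-1 points of blocks 1 and 2 lie above those of block 5 at the same minutes.

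Consecutive windows were compared gene by gene, and calls needed both a 2-fold difference and a p under 0.05 after Benjamini-Hochberg adjustment over every gene tested. From T1 to T2, 8 of the 10 genes had enough counts to be tested: gpd-3 rose, against 15.1% of all genes higher, and gpd-1, gpd-4 and enol-1 fell, against 14.5% lower. From T2 to T3 all 10 were tested: icl-1 rose, against 10.4% of genes higher, and gpd-1, gpd-4 and aldo-2 fell, against 14.1% lower. From T3 to T4 aldo-1 and aldo-2 fell, against 8.12% of genes lower, and none of the 10 was among the 13.6% higher. From T4 to T5 edgeR called none of them, against 8.80% of genes higher and 7.36% lower; 3 of 10 had an unadjusted p under 0.05, and DESeq2 also called none. Without the embryos off their labelled time 4 were called higher in T5: aldo-2, enol-1 (1.38, SE 0.27), gpd-3 (1.02, SE 0.19) and gpd-4 (1.04, SE 0.32). In that setting block 2 holds 1 embryo of T4 and 5 of T5. With title block as a covariate or within block 5, aldo-2 and icl-1 were called, and enol-1, gpd-3 and gpd-4 were not. In block 5 the T4 and T5 means (n = 10 each) were 154.1 ± 75.0 and 179.2 ± 33.2 CPM for enol-1. They were 186.7 ± 68.3 and 232.6 ± 85.2 for gpd-3, and 11.8 ± 10.2 and 23.4 ± 20.5 for gpd-4. From T5 to T6 aldo-1, aldo-2, enol-1, gpd-1 and gpd-3 rose, against 16.9% of genes higher, and none was among the 9.21% lower. From T6 to T7 gpd-2, gpd-3, enol-1, aldo-1 and pgk-1 rose, against 13.3% of genes higher, and none was among the 15.6% lower. With RLE in place of TMM size factors the split of all called genes from T5 to T6 was 1034 higher and 943 lower rather than 1171 and 639, and from T6 to T7 618 and 1118 rather than 704 and 826. From T2 to T3 DESeq2 gave 951 higher and 818 lower, against 639 and 869 in edgeR.

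**Figure D2:**
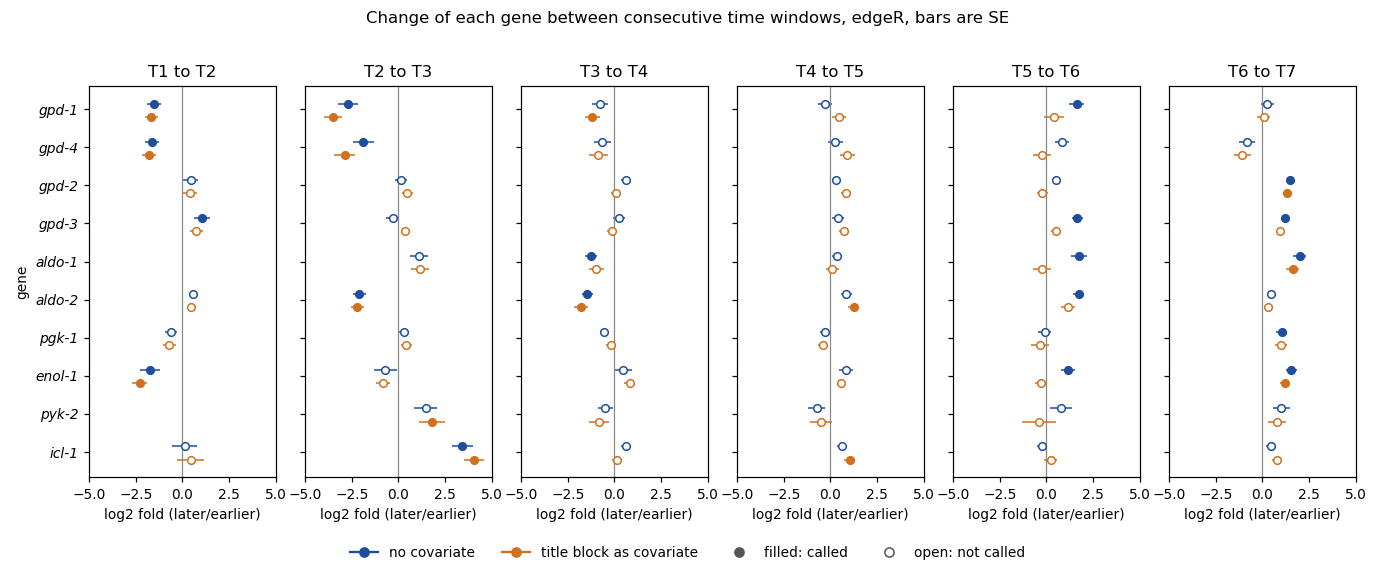
Log2 fold change of each gene between consecutive windows (later over earlier) with its standard error from edgeR; blue points are the fits without a covariate, orange points the fits with title block as a covariate, filled where called. The falls of gpd-1 and gpd-4 from T1 to T3 and the rise of icl-1 from T2 to T3 appear in both fits, while from T5 to T6 the fit with title block calls none of the 10. That last fit rests on T6 embryos of 400 to 420 min.

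The calls from T5 to T6 could not be separated from the block. Of the 25 embryos of T6, 18 are in block 1, which holds no embryo of T5. A fit with title block as a covariate therefore rests, for this step, on the T6 embryos of blocks 2 to 5, all labelled 400 to 420 min. It cannot decide whether the genes changed later in T6. With title block as a covariate 1 of the 10 genes had an unadjusted p under 0.05 and none was called, and within block 5, where T6 is 3 embryos of 400 to 420 min against 10 of T5, 2 had an unadjusted p under 0.05 and none was called. Over all genes the calls went from 1810 to 215 with the covariate and to 486 within block 5. The within-block values of this step are given beside each gene.

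Aldo-2 held nearly all aldolase counts in the early embryo, and aldo-1 joined it later. Aldo-2 had the highest mean of the 10 genes in T1 and T2. It ranged in T1 from 1032 to 3477 CPM with a median of 1743 and in T2 from 1113 to 3536 with a median of 1855. It then dropped to a median of 463.8 CPM in T3 (148.0 to 1509) and 195.2 CPM in T4 (22.1 to 615.3). The ranges of T2 and T3 overlapped through 1 embryo of T3, labelled 110 min. The log2 change was -2.09 (SE 0.34, edgeR adjusted p = 4.7e-05) from T2 to T3 and -1.46 (SE 0.30, adjusted p = 0.000159) from T3 to T4. In block 5 it stood at 3536 CPM at 60 min, 1855 at 80 min, 1993 at 90 min, 963.3 at 120 min, 383.9 at 140 min, 463.8 at 150 min and 148.0 at 190 min, lower over the hours but not at every step.

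Aldo-2 was higher again later, with means of 390.7 ± 268.9 CPM (SD, n = 18) in T5, 983.8 ± 395.2 (n = 25) in T6 and 1105 ± 223.1 (n = 25) in T7. It rose from T5 to T6 by 1.72 on the log2 scale (SE 0.30, edgeR adjusted p = 1.16e-05). Within block 5 the same step was 1.48 (SE 0.53, adjusted p = 0.0935), and there the earlier step from T4 to T5 was 1.54 (SE 0.41, adjusted p = 0.00431) and called. The step from T4 to T5 was 0.86 (SE 0.29, adjusted p = 0.0284) over all embryos, under the 2-fold limit, and 1.21 (SE 0.27) without the embryos off their labelled time, where it was called.

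Aldo-1 started near the lowest counts, with a median of 4.0 CPM in T1 and counts in 11 of 17 embryos; for the 6 without counts, 3 counts would have been 2.22 to 110.5 CPM. Its mean was 35.6 ± 32.0 CPM (n = 11) in T2 and 84.8 ± 40.2 (n = 13) in T3. That step, 1.09 on the log2 scale (SE 0.47, edgeR adjusted p = 0.0793), was not called, and DESeq2 called it. From T3 to T4 it fell by 1.25 (SE 0.30, adjusted p = 0.000989); within block 5 the change was -0.61 (SE 0.32, adjusted p = 0.133). It was at 110.0 ± 79.4 CPM (n = 25) in T6 and 365.6 ± 163.5 (n = 25) in T7, with log2 changes of 1.74 (SE 0.40, adjusted p = 0.000669) from T5 to T6 and 1.99 (SE 0.35, adjusted p = 6.63e-06) from T6 to T7. The T6 to T7 rise was 1.60 (SE 0.30) within block 1 and was called there; the T5 to T6 value was 0.16 (SE 0.47, adjusted p = 0.881) within block 5.

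Shares within a family were computed in each embryo from the counts of its genes, so that the total depth drops out, for embryos with at least 20 counts in the family. Windows were compared with a 2-sided permutation test of the difference of mean shares, adjusted over 30 comparisons of 5 shares. Aldo-2 made up 99.2% ± 1.7 (SD, n = 17) of aldolase counts in T1 and 98.0% ± 1.9 (n = 11) in T2. Its share fell to 85.2% ± 5.1 (n = 13) in T3 (adjusted p = 0.0001, from the smallest p that the resamples can give) and was 83.7%, 84.6% and 89.7% on average in T4, T5 and T6. It fell again to 75.9% ± 8.7 (n = 25) in T7, by 13.9 percentage points (adjusted p = 0.0001) over all embryos and by 11.7 points (adjusted p = 0.0006) within block 1. Aldo-2 was the larger of the pair in the mean of every window.

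The 4 GAPDH genes changed places during the first hours. Gpd-1 ranged from 550.1 to 2837 CPM in T1 with a median of 1216, from 38.4 to 867.5 in T2 with a median of 417.1, and from 15.2 to 304.4 in T3 with a median of 25.6. Gpd-4 ran beside it at a lower level, from 160.5 to 1719 CPM in T1 (median 549.4), 18.2 to 437.1 in T2 (median 149.5) and 9.7 to 263.7 in T3 (median 16.8). For gpd-1 the embryos of T1 and T3 did not overlap, and T2 overlapped both. Gpd-1 fell by 1.53 on the log2 scale (SE 0.38, edgeR adjusted p = 0.00198) from T1 to T2 and by 2.69 (SE 0.53, adjusted p = 0.000454) from T2 to T3. Gpd-4 fell by 1.65 (SE 0.38, adjusted p = 0.00101) and by 1.89 (SE 0.57, adjusted p = 0.0126) in the same steps.

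Within block 5, which has 1 embryo nearly every 10 min, the fall from T2 to T3 was larger, with log2 changes of -3.86 (SE 0.49) for gpd-1 and -3.36 (SE 0.52) for gpd-4. Gpd-1 there went from 829.8 CPM at 40 min to 417.1 at 70 min, 38.4 at 100 min and 22.5 at 120 min. The 4 T3 embryos of block 2, labelled 110 or 140 min, had 165.1 ± 115.2 CPM of gpd-1 against 29.3 ± 14.1 in the 9 of block 5, labelled 110 to 190 min. At 110 min the values were 147.7 and 183.7 CPM in block 2 and 61.8 in block 5. At 140 min they were 304.4 and 24.5 CPM in block 2 and 23.4 in block 5. After T3 the pair stayed low: the window medians of gpd-1 were 24.0, 18.9, 77.2 and 61.3 CPM from T4 to T7, and those of gpd-4 17.7, 21.9, 51.8 and 17.3. Without the embryos off their labelled time both genes also passed the test from T3 to T4, at -1.29 (SE 0.38) for gpd-1 and -1.43 (SE 0.41) for gpd-4. Gpd-1 rose from T5 to T6 by 1.62 (SE 0.41, adjusted p = 0.0017), but the value within block 5 was -0.26 (SE 0.50, adjusted p = 0.796).

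Gpd-2 and gpd-3 took the opposite course. They lie next to each other on chromosome X and are known to be transcribed in 1 operon with mai-1, which encodes a homologue of the mitochondrial ATPase inhibitor. Gpd-2 means climbed from 130.5 ± 78.2 CPM (n = 17) in T1 to 189.2 ± 44.9 (n = 13) in T3, 343.4 ± 86.7 (n = 18) in T5 and 917.1 ± 303.7 (n = 25) in T7. Of these steps the last passed the test, with a rise from T6 to T7 of 1.50 on the log2 scale (SE 0.18, edgeR adjusted p = 7.27e-10), and 1.32 (SE 0.17) within block 1. The T6 embryos ranged from 129.0 to 700.3 CPM and those of T7 from 404.2 to 1927, so the windows overlapped.

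Gpd-3 means were 137.0 ± 113.5 CPM (n = 17) in T1, 208.6 ± 76.1 (n = 13) in T3, 310.7 ± 162.4 (n = 18) in T5, 787.8 ± 316.9 (n = 25) in T6 and finally 1494 ± 464.2 (n = 25) in T7. From T1 to T2 the rise (1.04, SE 0.42, edgeR adjusted p = 0.0477) was 0.74 within block 5 (SE 0.43, adjusted p = 0.2) and 0.85 without libraries under 100000 gene counts (adjusted p = 0.165), where it was not called. From T5 to T6 the gene rose by 1.66 (SE 0.27, adjusted p = 3.76e-06), with 0.74 (SE 0.34, adjusted p = 0.186) within block 5. From T6 to T7 it rose by 1.23 (SE 0.20, adjusted p = 2.24e-06); within block 1 the step was 0.94 (SE 0.18, adjusted p = 4.69e-05), below the 2-fold limit. For the operon partner mai-1 the mean was highest in T2 at 20.1 ± 12.9 CPM (n = 11) and was 1.77 CPM in T7, where 7 of 25 embryos had a count. From T2 to T3, the step in which mai-1 passed the count filter, its log2 change was -1.15 (SE 0.56, adjusted p = 0.122).

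The share of GAPDH counts held by gpd-1 plus gpd-4 was computed in each embryo. It was 87.4% ± 4.95 (SD, n = 17, range 77.6 to 96.5) in T1, 58.0% ± 21.9 (n = 11, 21.7 to 85.2) in T2, 18.2% ± 13.5 (n = 13, 6.49 to 44.2) in T3 and 11.3% ± 6.34 (n = 28) in T4. The T1 and T3 embryos did not overlap, and T2 spanned the gap between them. The share fell by 29.4 percentage points from T1 to T2 (permutation test, adjusted p = 0.0001) and by 39.8 points from T2 to T3 (adjusted p = 0.00042). Within block 5 the changes were -27.7 points (exact permutation test, adjusted p = 0.00666) and -51.7 points (exact permutation test, adjusted p = 0.00175). In block 5 the share was 85.2% at 40 min, 68.2% at 70 min, 46.6% at 80 min, 21.7% at 100 min and 10.7% at 120 min; the 90 min embryo, at 75.0%, broke the sequence. Later shares were 8.20%, 10.1% and 4.38% on average in the last 3 windows, and the change from T6 to T7 (-5.68 points, permutation test, adjusted p = 0.00223) was -5.55 points within block 1 (adjusted p = 0.00175).

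**Figure D3:**
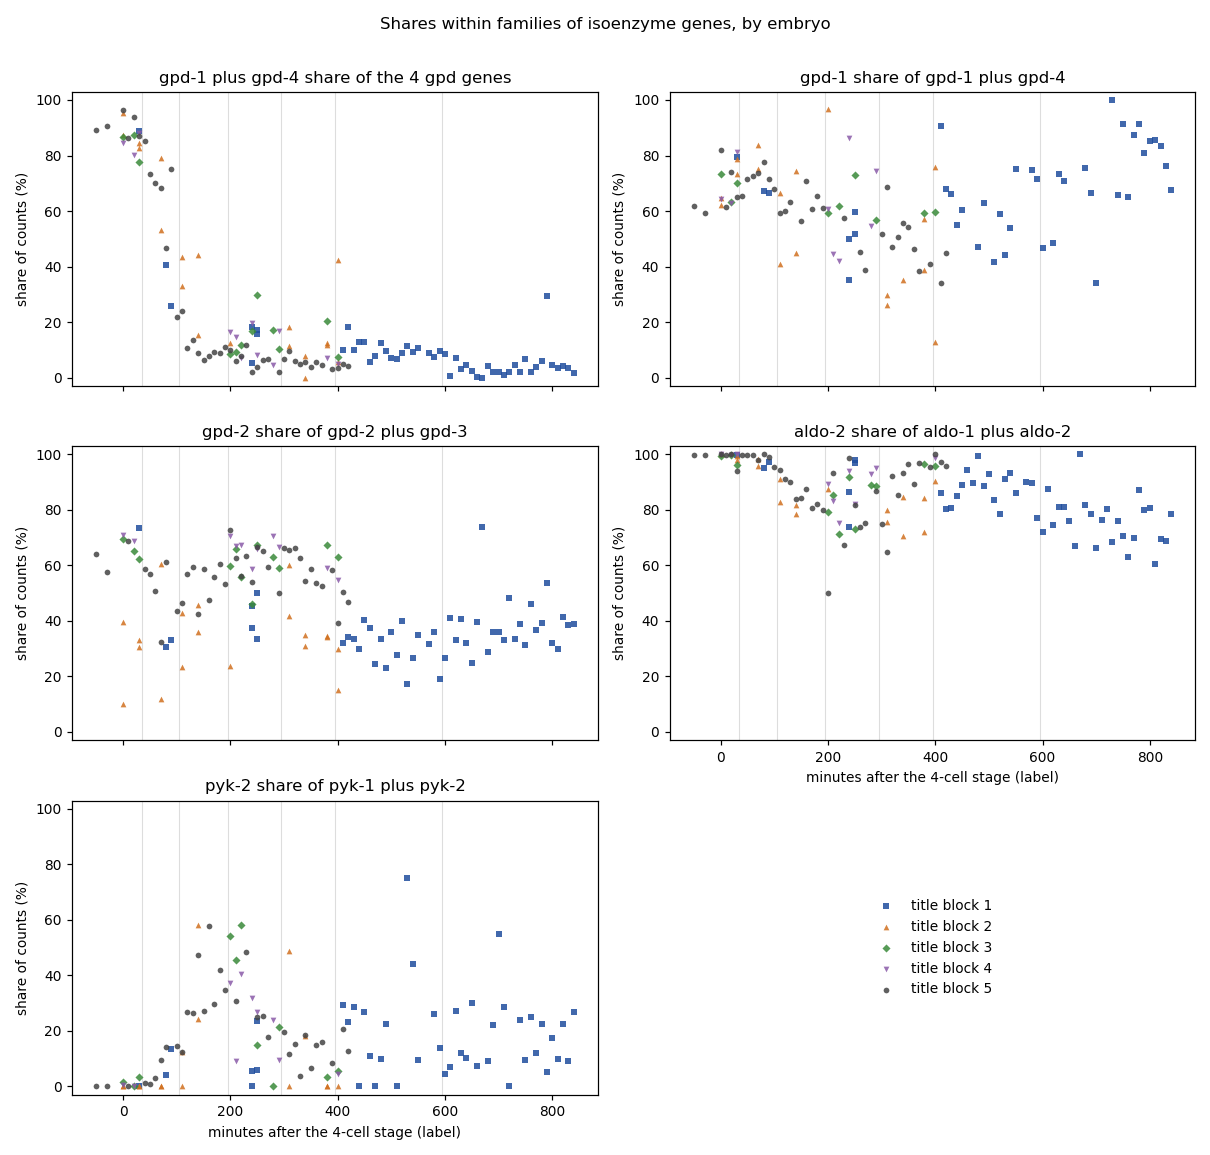
Share of a family's counts held by the named genes, in percent, against labelled minutes; each point is 1 embryo with at least 20 counts in the family, its shape and colour give the block of title numbers, and grey lines separate the windows. The gpd-1 plus gpd-4 share drops from above 77% in T1 to a mean of 18.2% in T3, the aldo-2 share is lowest on average in T7, and the pyk-2 share is highest on average in T3.

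The sum of the 4 GAPDH genes passed through a trough and averaged 2302 ± 1197 CPM (n = 17) in T1, 517.3 ± 221.4 (n = 13) in T3 and 2520 ± 582.4 (n = 25) in T7. Within each pair the split moved less. Gpd-1 held 69.2% ± 7.75 (n = 17) of the gpd-1 plus gpd-4 counts in T1, 72.1% ± 5.48 (n = 11) in T2 and 60.3% ± 9.64 (n = 12) in T3, a change of -11.8 points from T2 to T3 (permutation test, adjusted p = 0.00345). The same share was 57.8% ± 17.8 (n = 19) in T6 and 73.4% ± 16.9 (n = 19) in T7 (permutation test, adjusted p = 0.0239), a step of 11.3 points within block 1 that did not pass (adjusted p = 0.107). The gpd-2 share of the gpd-2 plus gpd-3 counts was 48.4% ± 10.8 (n = 13) in T3 and 58.0% ± 11.9 (n = 28) in T4 (permutation test, adjusted p = 0.0434). That step did not pass within block 5 (7.69 points, exact permutation test, adjusted p = 0.0636). Gpd-2 held 53.0% ± 12.7 (n = 17) of the gpd-2 plus gpd-3 counts in T5 and 34.3% ± 11.2 (n = 25) in T6, a change of -18.7 points (permutation test, adjusted p = 0.000225) that was -14.4 points within block 5 with 3 embryos in T6 (exact permutation test, adjusted p = 0.0152). This last share also differed by block: in T5 it was 39.4% ± 10.7 in 6 embryos of block 2 and 59.9% ± 5.57 in 9 of block 5. Gpd-1 and gpd-4, like gpd-2 and gpd-3, are close copies of each other. The counter for reads that align to several places holds 0 reads in these data, so shared reads may have been placed at 1 locus or left out. Levels within each pair are uncertain on that account, and the contrast between the pairs is less exposed to it.

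Pgk-1, whose enzyme makes ATP from the GAPDH product, moved little between windows. Window medians lay between 70.1 CPM in T6 and 201.2 CPM in T1, and the embryos of all 7 windows overlapped. From T1 to T2 the change was -0.59 (SE 0.33, edgeR adjusted p = 0.147), and within block 5, where it was called, -1.64 (SE 0.44, adjusted p = 0.01). The rise from T6 to T7 was 1.02 on the log2 scale (SE 0.30, adjusted p = 0.00485), just past the 2-fold limit, and 0.97 (SE 0.30, adjusted p = 0.0112) within block 1, just under it, as it was in DESeq2 (0.83, adjusted p = 0.00167) and without the embryos off their labelled time (0.95, adjusted p = 0.00369).

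Enol-1 transcripts ranged from 184.2 to 4681 CPM in T1 with a median of 944.7, from 28.8 to 879.3 in T2 with a median of 162.7, and from 28.1 to 1200 in T3 with a median of 75.8. The windows overlapped widely. It fell by 1.73 on the log2 scale from T1 to T2 (SE 0.55, edgeR adjusted p = 0.0137); within block 5 the change was -2.50 (SE 0.57, adjusted p = 0.00437). In T7 enol-1 had the highest mean of the 10 genes, at 2172 ± 828.1 CPM (n = 25), after 907.6 ± 479.5 (n = 25) in T6. It rose from T6 to T7 by 1.54 (SE 0.30, adjusted p = 3.11e-05) and by 1.19 (SE 0.26) within block 1. The lowest T7 value, 0, came from the shallowest T7 embryo, at 670 min with 39430 gene counts, in which 3 counts would have been 76.1 CPM. The rise from T5 to T6 (1.15, SE 0.39, adjusted p = 0.0206) was not called by DESeq2 (0.80, adjusted p = 0.0786) and its sign turned within block 5 (-0.29, SE 0.29, adjusted p = 0.577).

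Enol-1 was the member in which blocks stood farthest apart. At 410 min it measured 864.8 CPM in the embryo of block 1 and 159.3 CPM in that of block 5. Within block 5 it was also called from T2 to T3 (-1.07, SE 0.40, edgeR adjusted p = 0.0304) and from T3 to T4 (1.03, SE 0.25, adjusted p = 0.00247), where the values over all embryos, -0.70 (SE 0.61) and 0.48 (SE 0.47), were not. Embryos were then compared at shared labelled minutes, without those off their labelled time. Over 10 minutes at which blocks 2 and 5 both have embryos, block 2 was higher at all 10, by 2.64 ± 0.59 (SD over minutes) on the log2(CPM + 10) scale. Over 5 minutes shared by blocks 1 and 5 it was higher in block 1 at all 5, by 3.31 ± 0.94; the off-time embryos of block 1 add 2 more minutes, and with them the difference was 3.02 ± 0.94, higher at all 7. Gpd-3 was also higher at each of these minutes, by 1.31 ± 0.94 in block 2 (9 of 10 with the off-time embryos) and 2.00 ± 1.24 in block 1, and gpd-1 and gpd-2 were higher in block 1 at all 5, by 2.06 ± 0.85 and 1.45 ± 1.48. Aldo-2 was lower in block 1 at all 5, with a mean difference of -1.07 ± 0.68; with the off-time embryos it was -0.61 ± 1.25 over 7 minutes, lower at 6. Pgk-1 was lower in block 2 at 8 of 10 minutes, with a mean difference of -1.12 ± 1.28, and higher in block 1 at 3 of 5, by 0.55 ± 1.50. For icl-1 the means of the differences in blocks 2 and 1 were -0.50 ± 0.94 and 0.45 ± 2.16, with both signs among the minutes. The comparison at shared minutes was chosen after seeing the data.

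**Figure D4:**
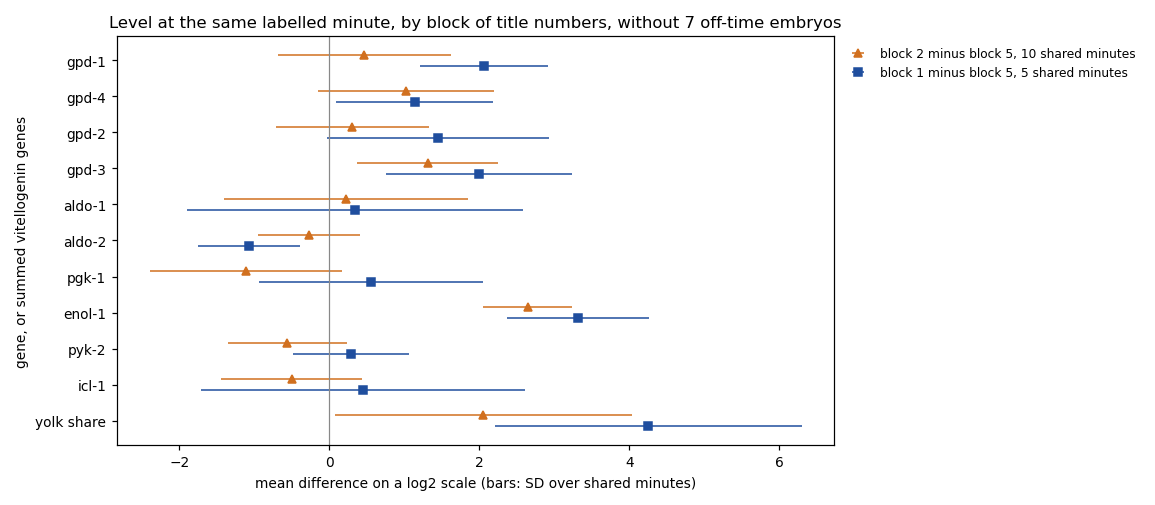
Mean difference of log2(CPM + 10) between embryos of block 2 (10 shared minutes) or block 1 (5 shared minutes) and embryos of block 5 with the same labelled minute, without the 7 embryos off their labelled time, for each gene, and of the log2 share of counts from 6 vitellogenin genes; bars are the SD over minutes. Enol-1 differs by 2.64 and 3.31, the largest values among the genes, and the vitellogenin share by 2.05 and 4.25.

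Transcripts of the mother's yolk proteins and markers of other tissues also differed between blocks, though not all in the same direction. The 6 vitellogenin genes, which are expressed in the adult intestine, took 0.244% ± 0.114 of gene counts in the 10 T5 embryos of block 5, 1.33% ± 2.01 in the 6 of block 2 (0.517% ± 0.375 in 5 without the off-time embryo), and 0.972% ± 0.395 in the 18 T6 embryos of block 1 against 0.173% ± 0.0652 in the 3 of block 5. All 6 had counts in every window. At the 5 minutes shared by blocks 1 and 5 the summed intestine, pharynx muscle, sperm, and oocyte and early embryo markers were higher in block 1 at all 5, by 3.30 ± 1.99, 2.48 ± 1.43, 3.40 ± 0.44 and 2.42 ± 1.25 on the log2(CPM + 10) scale. Body wall muscle markers were higher at 4 of 5, by 3.08 ± 3.39. Block 2 stood above block 5 in intestine markers at all 10 minutes, by 1.94 ± 0.85, and in body wall muscle markers at 8 of 10. Its oocyte and early embryo markers were higher at 8 of 10, by 0.65 ± 0.70. Sperm markers were higher at 4 and lower at 4, with a mean difference of -0.49 ± 1.44. Pharynx muscle markers were higher at 3 and lower at 6, with a mean difference of -1.13 ± 1.92. Reads that aligned nowhere had a median of 56.6% in block 1, 35.1% in block 2 and 26.1% in block 5. The part of these differences in the enol-1, gpd-1 and gpd-3 levels was not tested. The 790 min embryo of T7 had 558.8 CPM of gpd-1, against a T7 median of 61.3, and a gpd-1 plus gpd-4 share of 29.3%. It also had the highest summed vitellogenin (50710 CPM), oocyte and early embryo (7075 CPM) and sperm (535.8 CPM) marker levels of T7, and the lowest body wall muscle level (10295 CPM).

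Pyk-2 had the lowest mean of the 10 genes in every window but T7, where gpd-4 was lower. Counts were found in 7 of 17 embryos of T1 and in 12 of 13 of T3, and in the 10 embryos of T1 without a count, 3 counts would have been 1.70 to 127.0 CPM. Its mean was 1.85 ± 3.47 CPM (n = 17) in T1, 9.41 ± 9.23 (n = 11) in T2 and 31.7 ± 18.1 (n = 13) in T3, with 32.7 ± 39.4 (n = 25) in T7. The change from T2 to T3 was 1.47 on the log2 scale (SE 0.62, edgeR adjusted p = 0.076); it was called by DESeq2 (1.62, adjusted p = 0.0145), with title block as a covariate (1.79, adjusted p = 0.045) and within block 5 (1.26, adjusted p = 0.0259). The other pyruvate kinase gene, pyk-1, had a mean of 573.0 ± 312.3 CPM (n = 17) in T1 and 85.0 ± 49.1 (n = 13) in T3. The pyk-2 share of the pair rose from 0.469% ± 0.960 (n = 13) in T1 to 6.12% ± 6.18 (n = 10) in T2 (permutation test, adjusted p = 0.0039; 7.14 points within block 5 with 3 and 6 embryos, exact permutation test, adjusted p = 0.119) and 30.7% ± 17.4 (n = 13) in T3 (adjusted p = 0.00175). It fell from 25.3% ± 17.0 (n = 22) in T4 to 12.3% ± 12.4 (n = 15) in T5 (adjusted p = 0.0434), and within block 5 by 16.7 points (exact permutation test, adjusted p = 0.00666). In the annotation an antisense RNA gene overlaps pyk-2, and the sources do not say whether strand was used in counting, so its reads could not be assigned with certainty.

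Icl-1 showed the largest log2 change of the 10 between consecutive windows. Its levels ran from 1.803 to 106.0 CPM in T2 with a median of 8.24, and from 94.1 to 720.2 in T3 with a median of 355.9. The windows overlapped through 1 embryo of T3 at 110 min and 1 of T2 at 80 min. The rise was 3.42 on the log2 scale (SE 0.57, edgeR adjusted p = 6.04e-05), 4.04 (SE 0.54) with title block as a covariate and 4.39 (SE 0.63) within block 5. In block 5 the level was 7.81 CPM at 70 min, 84.0 at 100 min, 267.0 at 120 min, 582.7 at 140 min and 720.2 at 180 min. In T1 it was low too, with a mean of 43.6 ± 41.7 CPM (n = 17) and counts in 15 of 17 embryos.

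From T3 on icl-1 stayed high, with means of 616.8 ± 216.2 CPM (n = 30) in T4, 893.0 ± 364.5 (n = 18) in T5, 629.2 ± 373.9 (n = 25) in T6 and 714.5 ± 456.8 (n = 25) in T7. None of these steps was called over all embryos. Within block 5 the step from T4 to T5 was 1.00 on the log2 scale (SE 0.23, edgeR adjusted p = 0.00129) and called. Block 5 and block 1 disagreed after 400 min: the 410 and 420 min embryos had 1746 and 1663 CPM in block 5 and 452.3 and 600.8 CPM in block 1. Within T7, all in block 1, icl-1 was higher in later embryos. Pearson's r of log2(CPM + 10) with the labelled minute was 0.59 (permutation p = 0.00206, adjusted p = 0.0249 over 20 relations) and Spearman's rho 0.59 (adjusted p = 0.0176) over 25 embryos, and r was 0.48 without the 2 embryos farthest from the median minute.

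This relation was computed for all 10 genes in T6 and T7 within block 1. In T6, over 18 embryos, enol-1 rose with the minute (r = 0.66, permutation adjusted p = 0.0249; rho = 0.68, adjusted p = 0.0176; r = 0.61 without the 2 farthest embryos). Aldo-2 did so too (r = 0.63, permutation adjusted p = 0.0249; rho = 0.61, adjusted p = 0.0344; r = 0.66 without them). In T7, gpd-2 rose with the minute (r = 0.53, permutation adjusted p = 0.0295; rho = 0.56, adjusted p = 0.0209; r = 0.41 without them). For enol-1 in T7 rho was 0.58 (permutation adjusted p = 0.0176) and r 0.31 (adjusted p = 0.296), and r was 0.62 (adjusted p = 0.0111) without the shallow 670 min embryo. The other relations did not pass in either measure. Summed vitellogenin levels shifted along T7 as well. They were 1717 to 6928 CPM at 630 to 740 min and 11166 to 50710 CPM at 750 to 830 min. At 600, 610, 620 and 840 min they were 10277, 1591, 10227 and 8530 CPM. The part of this shift in the T7 trends, that of icl-1 included, was not tested.

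Over the 126 embryos with at least 100000 gene counts, which share their libraries, depth and blocks, Pearson's r of log2(CPM + 10) was 0.84 between gpd-1 and gpd-4, 0.75 between gpd-2 and gpd-3, 0.75 between gpd-3 and aldo-1, 0.70 between gpd-3 and enol-1, and -0.77 between gpd-1 and icl-1. The 2 aldolases had an r of 0.15. Among 9923 genes, those most like gpd-1 were F14H3.6 (r = 0.90), clec-87 (r = 0.90) and sip-1 (r = 0.90), the last a small heat shock protein gene expressed in oocytes and embryos. Gpd-4 was most like gpd-1 and then mex-5 (r = 0.83), a maternal regulator of polarity. Gpd-3 was most like act-5 (r = 0.93), the actin of intestinal microvilli, and unc-87 (r = 0.92), an actin-binding protein of muscle. Icl-1 was most like act-4 (r = 0.88), iff-2 (r = 0.88) and acdh-1 (r = 0.87), an acyl-CoA dehydrogenase. Enol-1 was most like eat-6 (r = 0.86), a sodium pump subunit, gdh-1 (r = 0.84), glutamate dehydrogenase, and gpi-1 (r = 0.84), the glucose-6-phosphate isomerase of glycolysis. For aldo-1 and gpd-2 the highest values were 0.81 with col-166 and 0.80 with M60.4, for aldo-2 0.77 with F01G4.6, for pgk-1 0.57 with adss-1 and for pyk-2 0.55 with eppl-1.

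Other genes of central carbon metabolism were counted from 6 lists with 74 genes measured. Of the 9 other glycolysis genes, 3 of 8 tested fell from T1 to T2 (14.5% of all genes), 3 of 8 rose from T5 to T6 (16.9% of all genes) and 4 of 7 rose from T6 to T7 (13.3% of all genes). Examples are gpi-1, which rose from T5 to T6 by 2.00 on the log2 scale (SE 0.32, edgeR adjusted p = 2.27e-06), and the phosphofructokinase gene pfk-1.1, which rose from T6 to T7 by 2.68 (SE 0.40, adjusted p = 1.94e-07). With title block as a covariate the calls of all 74 genes from T5 to T6 went from 12 to 1. That fit rests on T6 embryos of 400 to 420 min, and the changes of single list genes given for this step are from the fit without it. Lactate dehydrogenase, ldh-1, rose from T6 to T7 by 2.02 (SE 0.32, adjusted p = 1.02e-06). The gluconeogenic pck-1 rose from T5 to T6 by 4.13 (SE 0.63, adjusted p = 9.91e-07), to 69.5 CPM. The median log2 change of the 7 other glycolysis genes tested from T6 to T7 was 1.09 and that of the 10 members 1.02, beside -0.10 over all genes tested.

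Fatty acid breakdown supplies the acetyl-CoA used by icl-1. Of its 11 genes tested from T2 to T3, 4 rose, against 10.4% of all genes, with a median over the 11 of 1.56 beside -0.05 over all genes tested, and 5 of 14 rose from T3 to T4, against 13.6%. Among them were dhs-28 (3.56, SE 0.92, edgeR adjusted p = 0.00449) and maoc-1 (2.23, SE 0.65, adjusted p = 0.0102), enzymes of peroxisomal beta-oxidation, from T2 to T3, and ech-6 (1.88, SE 0.30, adjusted p = 2.55e-06) and acdh-1 (1.76, SE 0.41, adjusted p = 0.000838) from T3 to T4. From T4 to T5 acs-1 was the 1 of 14 that rose (8.80% of all genes), and 2 of 14 fell from T5 to T6 (9.21%). Of 22 tricarboxylic acid cycle genes tested from T1 to T2, 6 fell and 1 rose, against 14.5% and 15.1% of all genes; sucg-1, a subunit of succinyl-CoA ligase, fell by 1.89 (SE 0.39, adjusted p = 0.000374) and mdh-2, malate dehydrogenase, by 1.69 (SE 0.37, adjusted p = 0.000666). Isocitrate dehydrogenase idh-1, whose enzyme draws on the same substrate as icl-1, rose from T3 to T4 by 2.32 (SE 0.32, adjusted p = 1.78e-07) and fell from T5 to T6 by 1.85 (SE 0.30, adjusted p = 2.82e-06), both in fits without title block. The trehalose and glycogen list also holds glycerol-3-phosphate dehydrogenase genes. Of its genes, 3 of 6 tested fell from T1 to T2 (14.5% of all genes), with the glycogen synthase gsy-1 at -1.87 (SE 0.32, adjusted p = 4.92e-05) and the trehalase tre-1 at -1.77 (SE 0.40, adjusted p = 0.000965). From T2 to T3, 3 of 7 rose (10.4%), among them the glycerol-3-phosphate dehydrogenase gpdh-2 at 2.44 (SE 0.38, adjusted p = 2.85e-05).

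Markers of tissues that form late moved over the same windows as the late members. The summed level of 10 body wall muscle genes was 373.1 ± 656.1 CPM in T1, 4387 ± 1847 in T5, 8821 ± 2181 in T6 and 16842 ± 3702 in T7, and that of 8 intestine genes 1950 ± 2178 in T5, 6421 ± 3684 in T6 and 16787 ± 6118 in T7. Within block 5 the T5 and T6 values were 4619 ± 1864 (n = 10) and 8193 ± 1189 (n = 3) for muscle and 859.9 ± 269.1 and 1594 ± 144.1 for intestine, and the 18 T6 embryos of block 1 stood at 9626 ± 1792 and 7865 ± 3068. In block 1 the sums were not particular to late embryos. At 30, 80 and 90 min its muscle sums were 2542, 4879 and 3353 CPM, against 423.2, 20.2 and 53.5 in block 5. The intestine sums at these minutes were 2505, 3576 and 3029 CPM, against 253.9, 50.5 and 119.4. Genes of the oocyte and early embryo, 5 in the list, summed to 10796 ± 3735 CPM in T1, 2835 ± 2099 in T2 and 886.9 ± 878.9 in T3, the windows in which gpd-1 and gpd-4 fell. The part of these tissues in the levels of the enzyme genes was not tested.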

How the data were processed

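CEL-Seq was run on 139 single embryos. The deposited values are raw counts per gene without normalization by the authors. The submitters' processing notes name CASAVA 1.8, Bowtie2 2.1.0 and HTSeq 0.5.4p3; no genome build is named. Reads that named no gene (52.7% of all) and 92 spike-in rows were left out. No molecular identifiers are mentioned, so counts are amplified reads and floors of 3 counts cover counting error alone. RefSeq's WBcel235 table gave names and chromosomes for 20063 of 20687 rows. Nothing says which embryos share a mother, so p-values measure the spread between these embryos.

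Pairs of consecutive windows were fitted on their own embryos in edgeR 4.0.16 (R 4.3.3; TMM, filterByExpr minimum count 10, quasi-likelihood F-test), and all 7 windows together without a fold limit. Shares and trends used permutation tests with 100000 resamples, exact where a group had fewer than 10. An embryo's predicted time was the minute, on a grid of 10 min, whose kernel average of other embryos (SD 20 min) correlated best with it. The code was tested on simulated data.

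Named are all members, mai-1, pyk-1 for shares, the 3 genes most like each member and, per comparison, at most 4 called list genes with the largest change and at least 50 CPM in the higher window. Members, windows and lists were chosen with earlier results of these data known. Alternatives were DESeq2 1.42.0, RLE size factors, no count filter, leaving out shallow or off-time embryos, title block as covariate or 1 block, share minimums of 10 and 50 counts, and a pseudocount of 1.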

Additional observations from a re-analysis of the deposited data

How the results depend on the processing

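The 10 genes differed among windows under all 3 alternatives tried. Without a count filter the calls over all genes were 4452, 3001, 4000, 3343, 4952 and 5336 from T1 to T2 through T6 to T7. Within block 5 they were 2630 for T2 to T3, 1689 for T4 to T5 and 486 for T5 to T6, with 215 in that last step under the block covariate. Without off-time embryos they were 1940 for T4 to T5. RLE size factors moved the median log2 change of all genes from -0.10 to -0.31 (T6 to T7), from -0.07 to -0.20 (T5 to T6), from 0.01 to -0.13 (T4 to T5) and from -0.05 to 0.07 (T2 to T3).

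Members called were 4 without off-time embryos from T3 to T4. From T4 to T5 they were 1 without shallow libraries (under 100000 gene counts), 4 without off-time embryos, and 2 with the block covariate or within block 5 (aldo-2 and icl-1 in both). From T5 to T6 they were 0 with the covariate and 0 within block 5, with 1 and 2 at an unadjusted p under 0.05. Both settings rest on T6 embryos of 400 to 420 min for this step. DESeq2 without a block called 4. From T6 to T7 they were 3 in both block settings. Signs turned from T5 to T6 for aldo-1 (-0.24, covariate), gpd-1 (-0.26, block 5) and enol-1 (-0.31 and -0.29); the cause was not tested. Recomputed for the calls of the 6 steps, 114 fold changes stayed called in the same direction, 22 were no longer called and 4 turned.

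The gpd-1 plus gpd-4 share passed from T3 to T4 with at least 10 counts (-7.30 points) and in block 5 (-4.90). The gpd-1 share of its pair passed from T3 to T4 with at least 50 counts (-11.43) and in block 5 (-15.11), and from T4 to T5 with at least 10 counts (-11.17) and without off-time embryos (-14.16); from T6 to T7 it missed with at least 50 counts (13.47) and in block 1 (11.27). In 1 block, the gpd-2 share missed from T3 to T4 (7.69) and passed from T6 to T7 (7.21), and the pyk-2 share missed from T1 to T2 (7.14). The T7 trend of enol-1 passed without shallow libraries (r = 0.624). Pyk-2 and aldo-1 did not pass the count filter from T1 to T2; without it both were called (edgeR log2 changes of 3.17, adjusted p = 0.0101, and 2.20, adjusted p = 0.0194), and the 6 embryos of T1 without aldo-1 counts limit that value.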
